A study of Mus musculus with 5 samples.

Results

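The alpha and beta tubulin genes are described here in whole mouse kidney, as the 10 rows of the deposited gene table whose symbols are Tuba1a, Tuba1b, Tuba1c, Tuba4a, Tubb2a, Tubb2b, Tubb3, Tubb4b, Tubb5 and Tubb6, out of 23997 rows. The 10 were given by name: 4 encode alpha and 6 encode beta tubulin. All RNA was from whole kidneys at a mouse age of 8 weeks: 3 libraries carry the label of uninduced control, here control 0, 1 and 2, and 2 carry that of Pkd1 knockout, here knockout 0 and 1. Titles call the mutants SKO, the design text PkdTKO. The sources used here do not give the strain, the alleles, what the induction consisted of, the cells in which Pkd1 was deleted, or whether libraries are from separate or pooled animals, so p-values reflect the spread among these samples alone, and part of it may be technical. The series was about metalloproteinases, basement membranes and the expansion of cysts.

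Tubulins are the subunits of microtubules. An alpha and a beta chain fold into a heterodimer with the help of chaperones, and the dimers assemble into the spindle of dividing cells, the transport tracks of the cytoplasm and the axoneme of the cilium, where polycystin-1, the product of Pkd1, is also found. Mammals have several alpha and several beta genes, called isotypes, whose proteins differ mainly in an acidic tail at the carboxyl end, and cells use them in different proportions. When free dimers accumulate, tubulin messages are degraded on the ribosome through the adaptor TTC5, a feedback called tubulin autoregulation.

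Some isotype genes are near-identical copies, which bears on how their reads were assigned. The last 60 coding bases, stop codon included, of Tubb2a, the only tubulin gene to pass the test below, and of its copy Tubb2b are shown because they encode the part of the protein where isotypes usually differ, with capitals at the bases that differ between them:
Tubb2a: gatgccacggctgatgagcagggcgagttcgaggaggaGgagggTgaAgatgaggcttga
Tubb2b: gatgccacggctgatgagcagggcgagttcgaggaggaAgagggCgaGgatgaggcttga
They were read from the transcripts of GENCODE M21, an annotation of mm10. The 3 differing bases do not change the encoded amino acids, so this stretch of the protein is the same for both genes. Over the whole coding sequence Tubb2a and Tubb2b differed at 47 of 1338 bases, with an identical run of 551 bases. Of all 50-base windows along the longest coding transcript, 72.9% of Tuba1a, 73.8% of Tuba1b, 61% of Tuba1c, 49.6% of Tubb2a, 39.3% of Tubb2b and 50.9% of Tubb4b occurred in a transcript of another gene. For Tubb4b most of them were shared with the pseudogene Tubb4b-ps1. The shares were 1.11% for Tuba4a, 0.115% for Tubb5 and 0% for Tubb3 and Tubb6. How the authors assigned reads that fit several genes is not given in the sources used here, so the values of Tuba1a, Tuba1b, Tuba1c, Tubb2a, Tubb2b and Tubb4b are uncertain, and sums over the Tuba1 and the Tubb2 copies are given beside them.

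The 250 bases upstream of the start (RefSeq, GRCm38.p6) were found for 8 of the 10 genes. They are shown, gene strand and 5′ to 3′, for Tubb2a, for Tubb5, among the tubulin genes furthest above the controls in knockout 0, and for Tubb4b, the most abundant, which was not above the controls in both knockout libraries. The windows are chr13:34078009-34078258, chr17:35838307-35838551 and chr2:25224703-25224952, all on the minus strand, the Tubb5 window being 245 bases long to stay clear of the annotated exon:
Tubb2a: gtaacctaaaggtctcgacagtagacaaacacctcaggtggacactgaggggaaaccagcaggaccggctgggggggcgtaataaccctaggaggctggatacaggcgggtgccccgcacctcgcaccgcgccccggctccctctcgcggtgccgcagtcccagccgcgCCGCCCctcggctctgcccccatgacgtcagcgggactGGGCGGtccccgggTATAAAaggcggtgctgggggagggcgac
Tubb5: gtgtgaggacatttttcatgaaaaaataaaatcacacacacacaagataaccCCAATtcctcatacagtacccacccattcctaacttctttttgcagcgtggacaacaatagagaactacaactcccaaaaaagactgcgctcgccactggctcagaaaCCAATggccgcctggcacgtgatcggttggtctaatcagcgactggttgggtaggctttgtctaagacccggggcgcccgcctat
Tubb4b: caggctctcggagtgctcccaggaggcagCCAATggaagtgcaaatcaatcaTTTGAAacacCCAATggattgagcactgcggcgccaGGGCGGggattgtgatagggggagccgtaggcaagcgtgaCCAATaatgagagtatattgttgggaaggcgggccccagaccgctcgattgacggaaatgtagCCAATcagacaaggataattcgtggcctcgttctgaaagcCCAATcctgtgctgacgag
Capitals mark 4 motifs searched on both strands, with no overlap between matches: the CCAAT box (CCAAT), the GC box (GGGCGG), the TATA box (TATAAA) and the cell cycle homology region (TTTGAA). Of the 8 windows 5 overlap annotated exons, by 202 bases for Tuba1a, 175 for Tuba1b, 129 for Tubb3, 119 for Tuba4a and 5 for Tubb5, and the counts that follow include matches in those bases. The CCAAT box was in 5 of the 8 windows, against 33.8% of all 32851 promoter windows of the same length, and the GC box in 6 of 8, against 32.7%. The TATA box was in 1 of 8, that of Tubb2a, against 12.4%, and the cell cycle homology region in 1 of 8, that of Tubb4b, against 16%. Tubb4b held 5 CCAAT boxes, Tubb5 2 and Tubb2a 0. A match describes these letters only.

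The libraries differed in ways other than the genotype label. Pkd1 itself showed no detectable loss under the knockout label: its level in FPKM (fragments per kilobase of transcript, relative to all mapped fragments) was 3.22, 3.51 and 3.49 among the controls, 2.72 for knockout 0 and 3.60 for knockout 1 (limma adjusted p = 0.646). A value over the whole gene need not show a deletion of single exons, so every direction below is that of the libraries labelled as knockouts. Xist was near 0 in the controls and high in knockout 1, which had next to no Y-linked RNA, while knockout 0 had both, its Y-linked genes being at 39.1% of their control mean, so sex and genotype cannot be told apart. Injured-tubule, macrophage and dividing-cell markers had their highest sums in knockout 0, with values given further below. The tissue label was met by the kidney transporter genes Aqp1 (300.2 to 464.6) and Slc22a6 (164.7 to 324.7), while Lrp2 and Slc34a1, also of the proximal tubule, were listed at 0 in all 5 libraries, and an exact 0 in such a table can be a failed estimate. No tubulin gene of the 10 was listed at 0 in any library.

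Tubb4b and Tuba4a were the most abundant beta and alpha transcripts of the controls, and the order Tubb4b, Tuba4a, Tuba1b, Tubb5, Tubb2a was the same in all 5 libraries. FPKM is scaled to transcript length, so levels of different genes can be set side by side. Tubb4b, a beta tubulin of ciliary axonemes and of other microtubules, measured 195, 156 and 182 FPKM across controls 0 to 2. Tuba4a, an alpha tubulin that lacks the encoded carboxyl-terminal tyrosine of most others, followed at 111, 98.9 and 105, without overlap with Tubb4b. Then came Tuba1b at 39.99 to 47.2, Tubb5 at 29.9 to 35.4, Tubb2a at 24.9 to 26, Tuba1c at 18 to 20.0 and Tuba1a at 13 to 14.2, each range clear of its neighbours. Tubb2b (6.75 to 8.11) and Tubb6 (6.24 to 6.77) overlapped and so did not differ beyond their spread. Tubb3, the isotype used as a marker of neurons, was last at 0.0223, 0.0340 and 0.0278. In knockout 0 the order changed below the top, with Tuba1a (31.1) above Tuba1c (24.6), and Tuba4a (93.4) and Tuba1b (92.6) were almost level.

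**Figure D1:**
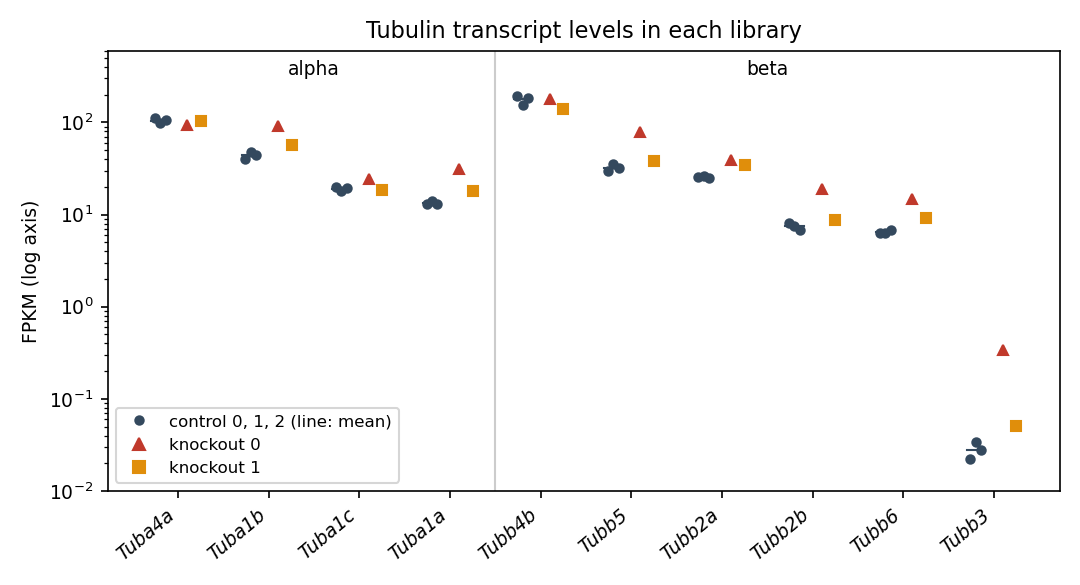
FPKM (log axis) of the 10 tubulin genes in each library, alpha genes left and beta genes right, ordered by their mean over the 5 libraries; dark points are controls with their mean as a line, the triangle is knockout 0 and the square knockout 1. Tuba4a and Tubb4b lie within or near the control points, while the other genes are highest in knockout 0.

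Tubb2a rose, and Tuba1a, Tuba1b, Tubb2b, Tubb5 and Tubb6 lay above every control in both knockout libraries without passing the test, while Tuba1c, Tuba4a and Tubb4b did not. Of the 9 tubulin genes tested, 1 rose (Tubb2a), 0 fell and 8 did not pass, where 2.73% of all 12640 tested genes rose and 3.62% fell (limma on log2(FPKM + 1), with p adjusted by Benjamini-Hochberg and called under 0.05), together 6.34%. The 802 calls over all genes split into 345 up and 457 down, and into 454 and 266 of 720 when each library was rescaled to TPM. At an unadjusted p under 0.05, 5 of the 9 were higher and 0 lower, against 12.5% and 16.6% of all tested genes. Both knockout libraries lay above every control in 6 of the 9 genes, against 21.9% of all tested genes, and below every control in 0 of 9, against 26.3%. The median log2 difference of the 9 genes was 0.71 in the fit, 1.06 in knockout 0 and 0.25 in knockout 1, beside -0.02, -0.04 and 0.00 over all tested genes. These counts describe a list chosen with results of these data known.

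Tubb2a, a beta tubulin with high levels in neurons that other tissues also express, was the gene that passed. Its FPKM was 25.7, 26 and 24.9 FPKM across controls 0 to 2, against 39.6 for knockout 0 and 34.9 for knockout 1. The control values lay close together and both knockout libraries stood well above them. Tubb2a rose by a log2 fold change of 0.52 (SE 0.0795, 95% interval 0.33 to 0.72, limma adjusted p = 0.0307). The call ended without control 0, 1 or 2 (adjusted p = 0.145, 0.0913 and 0.185), fits in which 37, 155 and 36 genes passed in all and 0.253%, 0.609% and 0.229% of all tested genes rose, and when replicate number entered as a block (0.251). It was kept without knockout 0 (0.0403) and without knockout 1 (0.0111), where 4.09% and 11.5% of all tested genes rose. In mm10, Tubb2a (ENSMUSG00000058672.7) spans bases 34074274 to 34078007 of chromosome 13 on the minus strand, close to its copy Tubb2b.

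Tubb2b, which is best known from the developing brain, was far above the controls in knockout 0 alone. Its FPKM was 8.11, 7.45 and 6.75 among the controls, 18.9 for knockout 0 and 8.79 for knockout 1. Knockout 1 was above the controls by less than the distance between the highest and the lowest of them. The log2 fold change of 0.73 (SE 0.297) did not pass (limma adjusted p = 0.178). Summed over the copies Tubb2a and Tubb2b, the FPKM was 33.8, 33.5 and 31.7 among the controls, 58.5 for knockout 0 and 43.7 for knockout 1. The sum is not free of how shared reads were split, since FPKM is scaled to transcript length. The longest coding transcripts have 1610 bases for Tubb2a and 2182 for Tubb2b.

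Tubb5, the beta tubulin made by most cell types, stood 2.42-fold above the control mean in knockout 0. Its FPKM was 29.9, 35.4 and 31.7 across controls 0 to 2, against 78.2 for knockout 0 and 38.5 for knockout 1. Both knockout libraries were above every control, knockout 1 by a small step. The fitted log2 difference was 0.75 (SE 0.292, 95% interval 0.02 to 1.49, limma adjusted p = 0.164). Almost none of the Tubb5 transcript is shared with another gene, so its value does not rest on the split of reads. In mm10, Tubb5 (ENSMUSG00000001525.10) spans bases 35833921 to 35838306 of chromosome 17 on the minus strand.

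Tubb6, a beta tubulin that is low in most tissues, had the smallest adjusted p among the genes that did not pass. Its FPKM was 6.25, 6.24 and 6.77 among the controls, 14.7 for knockout 0 and 9.28 for knockout 1. Both knockout libraries were clear of the controls. The fitted log2 difference was 0.77 (SE 0.181, 95% interval from 0.32 to 1.23, limma adjusted p = 0.0678). It passed when rescaled to TPM (0.046), without knockout 0 (0.0426) and without knockout 1 (0.00373). Tubb6 shares no 50-base window with another gene.

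Tubb3 was too low for the test, since its mean over the 5 libraries was 0.0947 and the filter asked for a mean FPKM of at least 1. Its FPKM was 0.339 in knockout 0 and 0.0503 in knockout 1, both above every control (0.0223 to 0.0340). The most common small value of FPKM times transcript length in single-transcript genes was taken as 1 fragment. By that measure the Tubb3 values rest on an estimated 56 fragments for knockout 0 and 20 for knockout 1. Controls 0 to 2 have 7, 11 and 6, so counting error alone is large in the controls. Without the filter the log2 fold change was 0.21 (limma adjusted p = 0.312), on a scale where the added 1 swamps such low values. Of 7 neuron and Schwann cell markers 0 were above every control in knockout 0 and 5 in knockout 1, against 34.2% and 38.4% of all tested genes. Their summed FPKM was 5.02 in knockout 0, 8.23 in knockout 1 and 6.4 to 6.93 in the controls. The neuronal gene Snap25 was at or below 0.0267 in every library.

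Tuba1a, prominent in the developing nervous system, and its copy Tuba1b, made by most cell types, were higher in both knockout libraries but did not pass. Tuba1b measured 39.99, 47.2 and 44.5 FPKM across controls 0 to 2, against 92.6 for knockout 0 and 56.3 for knockout 1. The fitted log2 difference was 0.71 (SE 0.216, 95% interval 0.17 to 1.25, limma adjusted p = 0.108). Tuba1a had 13, 14.2 and 13 among the controls, 31.1 for knockout 0 and 18.1 for knockout 1, and a log2 fold change of 0.78 (SE 0.218, adjusted p = 0.0921). In both genes knockout 1 lay above the highest control by more than the spread of the controls, and knockout 0 far above.

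Tuba1c, the remaining member of this cluster on mm10 chromosome 15 (Tuba1b at 98931425 to 98934565 and Tuba1a at 98949837 to 98953703, minus strand, Tuba1c at 99029891 to 99038110, plus strand), was not above the controls in knockout 1. Its FPKM was 20.0, 18 and 19.2 among the controls, 24.6 for knockout 0 and 18.5 for knockout 1. On this scale knockout 1 fell within the control range. The fitted log2 difference was 0.15 (SE 0.132, limma adjusted p = 0.48). When rescaled to TPM, both knockout libraries lay above every control (log2 difference 0.24, limma adjusted p = 0.241), so the place of knockout 1 depends on scaling. Whether this differs from the values of Tuba1a and Tuba1b was not tested. Summed over the 3 genes, the FPKM was 73.0, 79.4 and 76.7 among the controls, 148.3 for knockout 0 and 92.9 for knockout 1. The annotation also places an exon of Gm49450 over Tuba1a and Tuba1b on the same strand, and an exon of Gm41396 over Tuba1b on the opposite strand.

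Tuba4a and Tubb4b, the most abundant isotypes, had no detectable change. Tuba4a measured 111, 98.9 and 105 FPKM across controls 0 to 2, against 93.4 for knockout 0 and 103 for knockout 1. Knockout 0 lay just below the controls and knockout 1 within them. Its log2 fold change of -0.10 (95% interval -0.32 to 0.13, limma adjusted p = 0.517) became 0.0032 after quantile normalization. Tubb4b was at 178 in knockout 0, within the control range of 156 to 195, and at 138 in knockout 1, below it. The fitted log2 difference was -0.18 (95% interval -0.55 to 0.20, adjusted p = 0.484), and 0.0044 without knockout 1. The intervals leave room for a fall of Tubb4b of the size seen in knockout 1, so these genes are not shown to be equal in the groups. Exons of Stk16 overlap Tuba4a and exons of Fam166a overlap Tubb4b on the opposite strand, and the strandedness of the counting is not given in the sources used here.

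**Figure D2:**
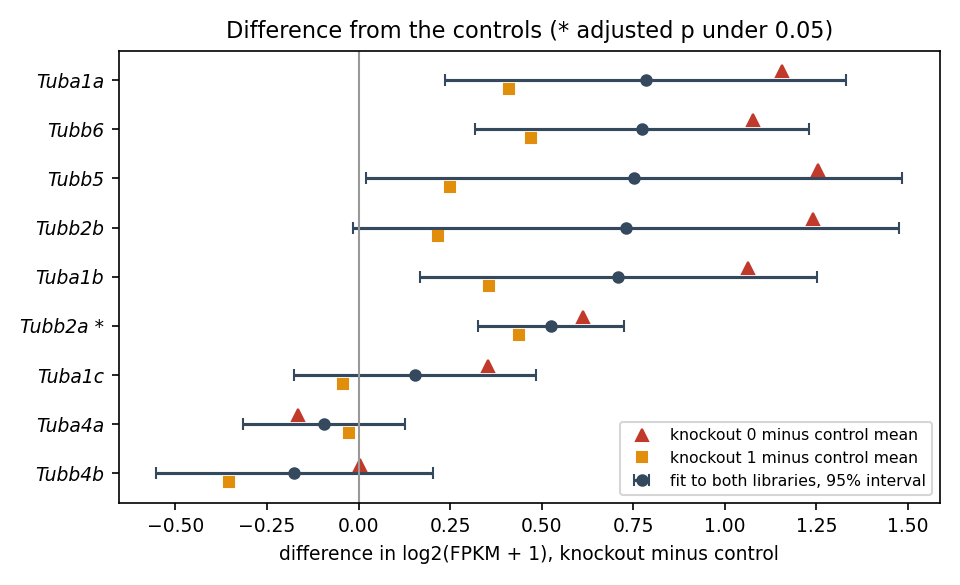
Difference in log2(FPKM + 1) between knockout and control for the 9 tested tubulin genes: circles with bars are the limma fit to both knockout libraries with its 95% interval, triangles knockout 0 and squares knockout 1 minus the control mean. In 8 of the 9 genes the triangle lies to the right of the square, and Tubb2a, marked with a star, has a narrow interval that is clear of 0.

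Tuba4a and Tubb4b made up less of the tubulin transcript pool in both knockout libraries than in any control. A share within a library does not change with how libraries are scaled to each other. Tuba4a made up 60.3%, 55.5% and 57.8% of the summed alpha FPKM across controls 0 to 2, against 38.6% for knockout 0 and 52.6% for knockout 1. Tubb4b made up 73.6%, 67.5% and 72.2% of the summed beta FPKM among the controls, 53.9% for knockout 0 and 60.2% for knockout 1. For both genes the levels themselves did not pass the test, as given above, while those of the other isotypes were higher in knockout 0. In knockout 1 Tubb4b itself was below every control (138, against 156 to 195). The beta sum there was just below every control in FPKM, at 229.8 against 231.4 to 265.2. That small step depends on scaling. With the factors that rescale to TPM, 2.161 for knockout 1 and 1.972 to 1.981 for the controls, the beta sum of knockout 1 lies within the control range.

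Shares above every control in both knockout libraries were those of Tuba1a, Tuba1b, Tubb2a, Tubb2b, Tubb3, Tubb5 and Tubb6. Tuba1b held 24.2% ± 2.37 (SD, n = 3) of the alpha sum among the controls, 38.3% for knockout 0 and 28.7% for knockout 1, and Tuba1a 7.40% ± 0.498, 12.9% and 9.27%. The share of Tuba1c hardly differed in knockout 0, at 10.5% ± 0.417, 10.2% and 9.43%. Tubb5 held 13% ± 2.04 of the beta sum among the controls, 23.8% for knockout 0 and 16.8% for knockout 1. Tubb2a took its largest share in knockout 1, at 15.2%, against 10.3% ± 0.855 in the controls and 12.0% in knockout 0. No test was made of these shares, since they are sums over genes chosen with results known.

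Summed over the 10 genes, tubulin FPKM was 449, 409.7 and 434 across controls 0 to 2, against 571 for knockout 0 and 426 for knockout 1. On this scale knockout 1 lay within the control range for the sum and outside it for the makeup. The place of the sum depends on how libraries are scaled. All rows together summed to 462814 FPKM in knockout 1 and 504914 to 507053 in the controls. Rescaling to TPM multiplies knockout 1 by 2.161 and the controls by 1.972 to 1.981, which puts its tubulin sum above every control. Without Tuba4a and Tubb4b the sum of the other 8 genes was 143, 154 and 147 among the controls, 300.03 for knockout 0 and 184 for knockout 1. The beta sum was 1.44, 1.30 and 1.39 times the alpha sum in the controls, 1.36 times in knockout 0 and 1.17 times in knockout 1.

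**Figure D3:**
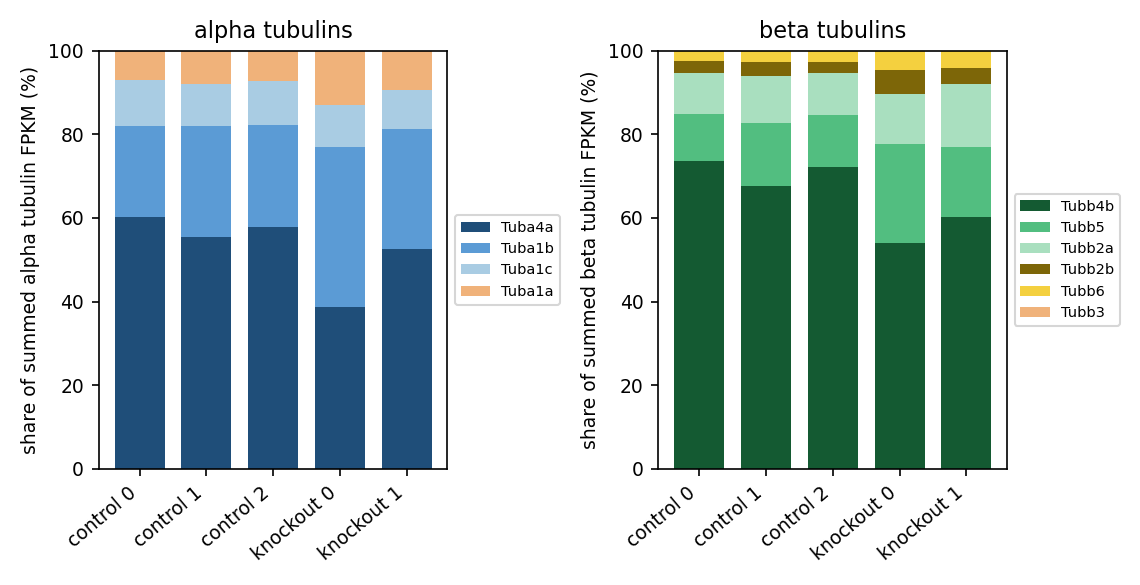
Share of each isotype in the summed alpha (left) and beta (right) tubulin FPKM of each library, in percent, as stacked bars with 1 bar per library. The lowest block, Tuba4a on the left and Tubb4b on the right, is shorter in both knockout libraries than in any control, most of all in knockout 0 (38.6% and 53.9%).

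Several marker lists of other cell types and of injury had their highest sum in knockout 0, where 7 of the 9 tested isotypes lay above every control. Of all tested genes, 34.2% lay above every control in knockout 0, 38.4% in knockout 1 and 21.9% in both, and the marker counts are to be read against these shares. The summed FPKM of 5 injured-tubule markers was 9.15 to 11.9 among the controls, 309 for knockout 0 and 12.1 for knockout 1, with 5 and 3 of the genes above every control. That of 4 macrophage markers was 59.3 to 64.9, 209 and 75.4, with 4 of 4 above every control in both knockout libraries. That of 6 dividing-cell markers was 5.98 to 15.1, 37.5 and 13.1, with 6 and 1 above every control, and that of 5 fibroblast and pericyte markers 48.6 to 72.6, 132 and 78.6, with 4 and 3. That of 5 lymphocyte markers was 1.94 to 2.27, 6.78 and 3.61, with 5 of 5 above every control in both. Of 4 markers of cells with motile cilia, which use Tubb4b in their axonemes, 3 and 2 were above every control, and their sum was 3.06 to 3.49, 4.98 and 3.67. The other lists did not have their highest sum in knockout 0. That of 5 proximal tubule markers, of which 2 were listed at 0 throughout, was below every control in both knockout libraries. It was 636 and 634, against 810 to 881 in the controls. Of these genes Slc5a2 was within the control range in knockout 1, at 103.3 against 92.1 to 115.4. That of 5 podocyte markers was 92.5 in knockout 0 and 138 in knockout 1, against 101 to 129, with 0 and 4 above every control. That of 5 endothelial markers was 94.7 and 105, against 90.7 to 94.95, with 2 and 4 above every control. The sum of 5 markers of the loop, distal tubule and collecting duct was lowest in knockout 0, at 633, against 1057 to 1076 in the controls and 1086 in knockout 1. Apart from the 2 proximal tubule genes listed at 0, no marker named in these lists was at 0 in any library. Their part in the tubulin values was not tested. In RNA from a whole organ, more cells of a type and more RNA per cell cannot be told apart.

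The 3 controls also differed among themselves in the dividing-cell markers and in the isotypes. Control 1 had the highest summed FPKM of the dividing-cell markers (15.1, against 10.8 in control 2 and 5.98 in control 0), and also the highest Tuba1b, Tuba1a and Tubb5 and the lowest Tuba4a and Tubb4b of the 3. Control 0 had the lowest Tuba1b and Tubb5 and the highest Tuba4a and Tubb4b. Other isotypes had another order: Tuba1c was also lowest in control 1 and highest in control 0, Tubb2b was highest in control 0 and lowest in control 2, Tubb6 was highest in control 2 and almost level in the others, and Tubb2a was highest in control 1 but lowest in control 2. With 3 libraries, any relation between these orders was not tested. In knockout 1 the marker sum of 13.1 lay within the control range, while Tuba1a, Tuba1b, Tubb2a, Tubb2b, Tubb5 and Tubb6 lay above it.

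Genes that fold, modify or bind tubulin had medians near 0 or slightly below it. Of 21 tested genes for folding and autoregulation 0 rose and 0 fell, and the median log2 difference was -0.11, with 10 of 21 below every control in both knockout libraries and 0 above (all tested genes, 26.3% and 21.9%). At an unadjusted p under 0.05, 4 were lower and 0 higher, where 16.6% and 12.5% of all tested genes were, so the count of lower genes is near the background. Pfdn1 and Pfdn2, subunits of prefoldin, which hands nascent tubulin to the chaperonin, had the smallest p-values. Pfdn2 measured 87.5, 83.4 and 95.3 FPKM among the controls, then 67.5 (knockout 0) and 51.6 (knockout 1) (limma adjusted p = 0.0668), and Pfdn1 82.5, 82.6 and 83.1, then 66.9 and 58.5 (adjusted p = 0.0545). Both knockout libraries lay below the controls in each. Ttc5, the adaptor of tubulin autoregulation, was at 15.7, 17.3 and 17.9, then 17.8 and 19.0 (adjusted p = 0.423), with knockout 0 inside the control range.

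Map4, the main microtubule-stabilizing protein outside neurons, rose. Its FPKM was 13.7, 13.6 and 15.1 among the controls, then 23.2 (knockout 0) and 22.7 (knockout 1) (log2 fold change 0.66, SE 0.0734, limma adjusted p = 0.0191). It stood at nearly the same level in both knockout libraries and clear of the controls. It was the only call among 26 tested microtubule-associated, severing and depolymerising proteins, of which 1 rose, 0 fell and 25 did not pass, with a median log2 difference of 0.04. At an unadjusted p under 0.05, 4 of them were higher and 2 lower, against 12.5% and 16.6% of all tested genes. Both knockout libraries lay above every control in 10 of the 26 and below in 4, against 21.9% and 26.3% of all tested genes. The single call stands beside 2.73% of all tested genes.

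Of 16 tested tubulin-modifying enzymes 0 passed, with 0 higher and 2 lower at an unadjusted p under 0.05 (all tested genes, 12.5% and 16.6%) and a median log2 difference of -0.02. The smallest p-values were those of Tpgs1, a subunit of a tubulin polyglutamylase complex, at 24.8, 27.5 and 28.3 among the controls, then 21.6 (knockout 0) and 21.7 (knockout 1), and of Ttll4, a glutamylase, at 5.48, 5.10 and 5.79, then 3.73 and 4.5 (limma adjusted p = 0.0887 and 0.101). Both genes were lower in each knockout library than in every control.

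Of 20 tested genes for microtubule nucleation 0 passed, with 0 higher and 1 lower at an unadjusted p under 0.05 (all tested genes, 12.5% and 16.6%) and a median of 0.01. The lower one was Ninl, a centrosomal protein, at 8.87, 8.38 and 9.04 among the controls, 3.54 for knockout 0 and 6.42 for knockout 1 (limma adjusted p = 0.0911). Tubgcp2, a subunit of the gamma-tubulin ring complex, was at 5.39, 5.38 and 4.66, then 6.66 and 5.80 (adjusted p = 0.184).

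Of the other 10 tubulin family genes only Tubg1 and Tubd1 were high enough to test, and 0 passed, with 0 at an unadjusted p under 0.05 in either direction (all tested genes, 12.5% and 16.6%). Tubg1, the gamma tubulin that nucleates microtubules, was at 15.1, 16.2 and 15.1 among the controls, then 16.8 (knockout 0) and 14.7 (knockout 1). Tubd1, the delta tubulin of centrioles, was at 2.60, 2.73 and 2.72, then 3.39 and 3.0 (limma adjusted p = 0.221).

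**Figure D4:**
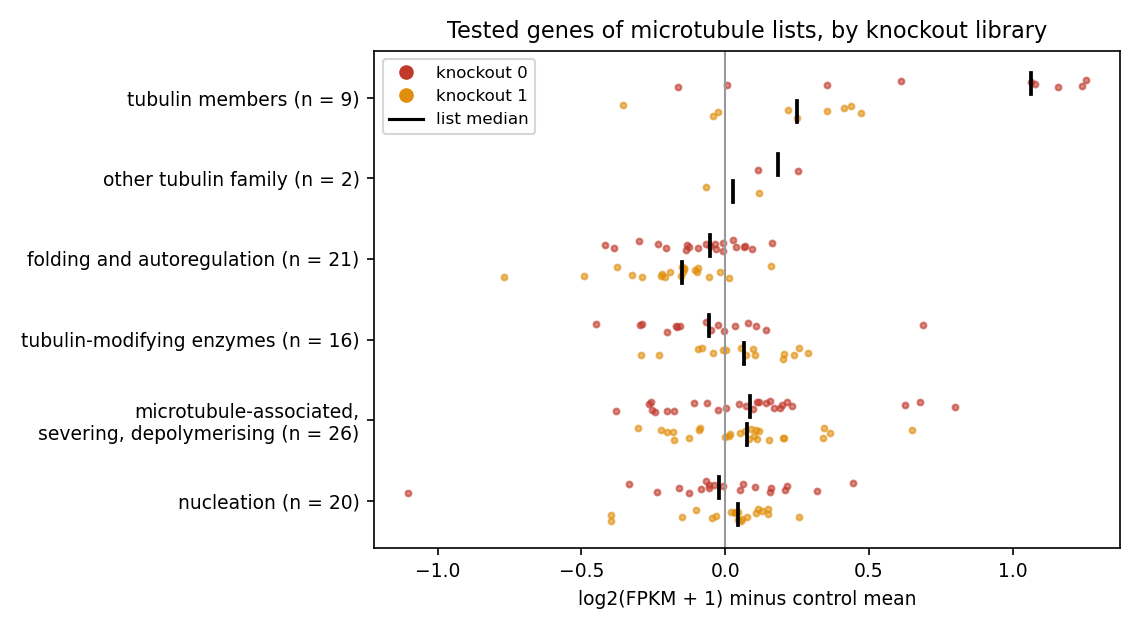
Difference of each tested gene from the control mean in log2(FPKM + 1), for the tubulin genes and 5 lists of microtubule genes; red points are knockout 0, orange points knockout 1, black bars the list medians, and the vertical scatter carries no value. The tubulin genes have a median of 1.06 in knockout 0 and 0.25 in knockout 1, and the list of folding and autoregulation genes medians of -0.05 and -0.15.

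The genes whose profile over the 5 libraries was nearest to the median tubulin profile were Dcdc2a, Birc3 and Entpd2. Likeness was the Euclidean distance between log2(FPKM + 1) values less the control mean, and it was 0.0606, 0.0753 and 0.0801. Dcdc2a, which encodes a protein with doublecortin domains, measured 4.28, 4.40 and 4.5 FPKM among the controls, 10.6 for knockout 0 and 5.45 for knockout 1. Birc3, an inhibitor of apoptosis, was at 3.53, 3.55 and 3.36, then 8.04 and 4.44. Among the tubulin genes themselves the distance ran from 0.198 for Tuba1b to 1.26 for Tuba4a. The 3 genes were picked as the nearest of all tested genes outside the tubulin list. Their smaller distances therefore do not show a closer relation.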

How the data were processed

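Whole-kidney RNA was measured in 5 libraries. The authors deposited 1 table of FPKM with a column per library, and the submitters' processing notes name bcl2fastq and mm10. Not given in the sources used here are the aligner, the FPKM program, the annotation and the strandedness. Of its value columns 0 lacked a library.

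FPKM are not counts, so no count test was run. Differences were fitted on log2(FPKM + 1) with limma 3.58.1 in R 4.3.3 (lmFit, eBayes with trend, two-sided) over the 12640 rows whose mean FPKM reached 1, with Benjamini-Hochberg adjustment over all of them and a threshold of 0.05. A fold change on this scale understates changes of low genes. The script was tested on simulated data. With 3 against 2 libraries the smallest exact permutation p is 0.1, so none was run.

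Depth is not stated. In 5370 single-transcript genes, the most common small value of FPKM times transcript length was taken as that of 1 fragment. It gave relative depths of 1, 1.09, 0.681, 0.57 and 1.33 for control 0, 1 and 2 and knockout 0 and 1. Fragment numbers derived from them are estimates and cover counting error only.

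The tubulin genes and all lists were chosen with earlier results of these data known. All 10 tubulin genes are named. Of each microtubule list, up to 3 passing genes per direction are named by adjusted p, or else the 2 with the smallest p, and also the nearest profiles. Marker genes, the other genes set beside them and the printed sequences were named after their values were seen. Alternatives tried: pseudocount 0.1, the filter dropped or raised to 5, TPM, median-of-ratios and quantile scaling, no variance trend, robust variances, rows at 0 left out, a replicate block and each library left out. Python 3.11.15, numpy 2.4.6, pandas 2.3.3 and matplotlib 3.10.9 handled tables and plots.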

Additional observations from a re-analysis of the deposited data

How the results depend on the processing

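Of the 9 tested tubulin genes 1 rose, and the number was also 1 with a pseudocount of 0.1, no filter, a mean of at least 5, median-of-ratios or quantile scaling, no variance trend, robust variances or rows at 0 left out. It was 2 when rescaled to TPM and 0 when replicate number entered as a block, and it ran from 0 to 6 with single libraries left out: 0 without any control, 2 without knockout 0 and 6 without knockout 1. The shares of all genes called higher in these last fits were 4.09% and 11.5%. With 1 knockout library left, its spread is taken from the controls. No tubulin gene was called lower in any of the 15 alternatives run.

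Over all genes the 802 calls became 482 with no filter and 28 with the replicate block, and ran from 36 to 2599 with single libraries left out. Same-numbered control and knockout libraries did not deviate together (correlations 0.0863 and 0.0024), so the number is not taken to pair them. The cause of these changes was not tested. With single libraries left out the log2 difference of Tuba1c ran from -0.0436 (without knockout 0) to 0.353 (without knockout 1) and that of Tubb4b from -0.355 (without knockout 0) to 0.0044 (without knockout 1). That of Tuba4a was 0.0032 after quantile normalization. When rescaled to TPM, Tuba1c joined the genes above every control in both knockout libraries. They were then 7 of 9, where 3884 of 12640 tested genes were above. With 2 knockout libraries that differ from each other, intervals are wide.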
